A study of Mus musculus with 9 samples.

Results

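MHC class I molecules carry peptides of proteins made inside the cell to its surface, where CD8 T cells read them. The 10 genes described here encode the parts of that route: the heavy chains H2-K1 and H2-D1, their shared light chain B2m, the peptide transporter subunits Tap1 and Tap2, the loading factor Tapbp, the immunoproteasome subunits Psmb8, Psmb9 and Psmb10, and Nlrc5, which activates class I genes. They were chosen by name as parts of the pathway, with earlier results of these data known, and they are 10 of the 53465 genes of the count table. All 10 passed the filter on low counts and are among the 14088 genes tested.

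The RNA came from cultured mouse adult fibroblasts. Libraries were made from cells given DPI for 72 h (3 libraries), from cells given DPI for 24 h (3 libraries) and from control cells (3 libraries). The labels do not spell out DPI. Since the series concerns the flavin cofactor of respiratory complex I, it is read as diphenyleneiodonium, which blocks flavin-dependent enzymes. The labels give no dose, mouse strain or sex, no collection time for the controls, and no word on whether the controls received a vehicle or whether the 3 libraries of a group were separate cultures. Time in culture and DPI therefore cannot be told apart. The p-values of the fitted changes rest on the spread among libraries within groups, pooled over the groups and drawn toward that of other genes. This spread could be technical.

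In fibroblasts, as in most cells, the class I route runs without stimulation and is raised by interferon. The proteasome cuts proteins into peptides, and the immunoproteasome subunits replace the constitutive catalytic subunits and change which peptides are made. Tap1 and Tap2 pump the peptides into the endoplasmic reticulum, where tapasin (Tapbp) holds an empty heavy chain with B2m next to the transporter until a peptide fits.

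Depth ranged from 15292736 to 17923656 counts per library. Control 2 stood apart from the other controls: chi-square per degree of freedom over genes was 31.3 against control 1 and 26.6 against control 3, while the other pairs within a group lay between 3.62 and 7.68. Without it, 10 of the 10 genes were lower at 72 h, 8 at 24 h and 7 at 72 h against 24 h by edgeR, while 6.0%, 14.7% and 17.1% of the 14421 genes then tested were lower. Of 10 fibroblast markers, Col1a1, Col1a2 and Vim were abundant, at 1540 CPM or more in every library (CPM, counts per 1000000 after TMM scaling), while Lum, Thy1 and Fap stayed at or under 0.306 CPM. Col3a1 and Dcn were low as well, at 1.16 to 6.67 CPM and 0.911 to 4.45 CPM.

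All 10 genes were lower after 72 h of DPI than in controls, and none was higher. Their log2 changes lay between -2.47 (Psmb8) and -0.68 (Psmb10), with a median of -0.91, against a median of -0.005 over all genes tested. By edgeR's quasi-likelihood test, with Benjamini-Hochberg adjustment over all genes and a threshold of 0.05, 3.83% of all genes tested were lower and 4.73% higher in the same comparison. Every 72 h library lay below every control library for all 10, as it did for 13.2% of all genes tested. In a bulk sample, fewer cells that express a gene and less RNA of it per cell cannot be told apart.

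**Figure D1:**
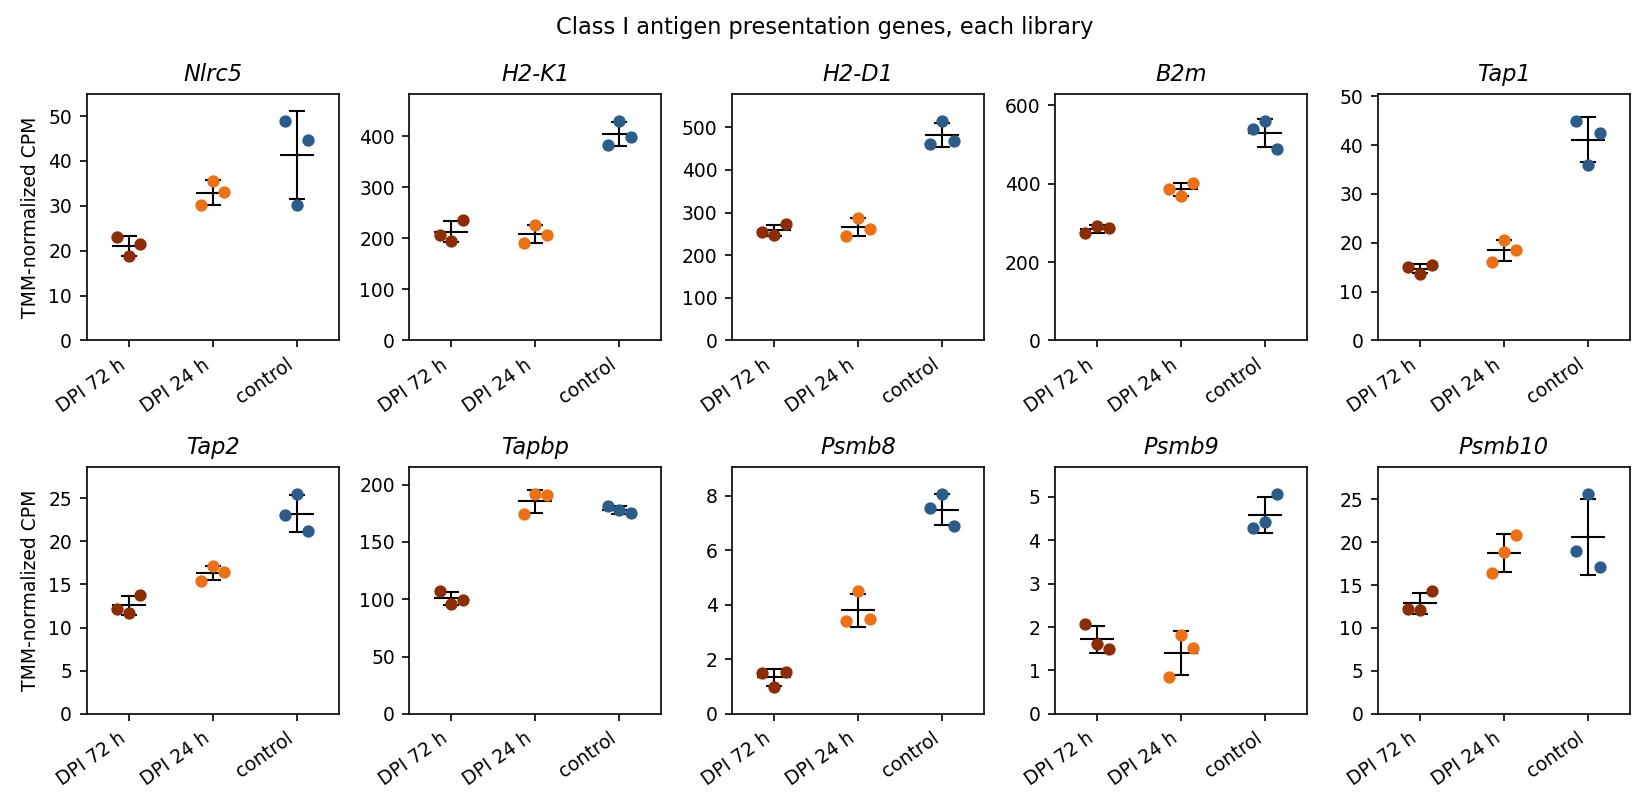
TMM-normalized CPM of each class I gene (vertical axes, linear and from 0) in the 3 libraries of each group, with the mean (bar) and SD (whiskers, n = 3). At 72 h all 3 points lie below all 3 control points in each of the 10 panels, while at 24 h Tapbp, Psmb10 and Nlrc5 overlap the controls.

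Nlrc5 is the transcriptional activator of class I genes: it binds no DNA itself and joins the factors that sit on their promoters. It measured 22.96, 18.7 and 21.4 CPM in the 72 h libraries, 30.1, 35.6 and 33.2 CPM in the 24 h libraries, and 48.9, 30.2 and 44.6 CPM in the controls. Control 2 is the low control, and it lies within the range of the 24 h libraries. Nlrc5 fell at 72 h to 51.1% of control (log2 change -0.97, SE 0.16, adjusted p = 0.00299, edgeR). At 24 h its log2 change was -0.32 (SE 0.16, adjusted p = 0.159, edgeR). Without control 2 that change was -0.51 with adjusted p = 0.00121, and it also passed when low counts were not filtered out (adjusted p = 0.0186).

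H2-K1 and H2-D1 are the classical class I heavy chains, the part that holds the peptide. H2-K1 stood at 207, 195 and 236 CPM at 72 h, at 191, 227 and 207 CPM at 24 h, and at 383, 430 and 398 CPM in controls. H2-D1 stood at 254, 248 and 273 CPM at 72 h, at 245.5, 287.5 and 262.5 CPM at 24 h, and at 462, 515 and 469 CPM in controls. For both heavy chains the 2 DPI groups overlapped each other and lay wholly below the controls. H2-K1 fell to 52.7% of control at 72 h (log2 change -0.92, SE 0.09, adjusted p = 7.82e-05) and to 51.6% at 24 h (-0.95, SE 0.09, adjusted p = 2.67e-05, edgeR). H2-D1 fell to 53.6% at 72 h (log2 change -0.90, SE 0.07, adjusted p = 2.99e-05) and to 55% at 24 h (-0.86, SE 0.07, adjusted p = 1.75e-05, edgeR). At 72 h against 24 h neither passed the test: the difference was 0.03 for H2-K1, with a 95% interval from -0.16 to 0.22, and -0.04 for H2-D1, with an interval from -0.20 to 0.13.

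Class I heavy chains resemble each other, so reads can be shared among them. Of the 50-base windows of the longest coding transcript, 8.79% in H2-K1 and 14.32% in H2-D1 also occurred in transcripts of other genes, chiefly other H2 genes. With the counts of 20 class I heavy chain genes summed to a single feature, of which H2-K1 and H2-D1 gave 78.7%, the log2 change was -0.88 at 72 h (adjusted p = 3.07e-05) and -0.83 at 24 h (adjusted p = 1.97e-05, edgeR). This summing was chosen after the data were seen.

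B2m is the light chain that pairs with class I heavy chains and helps bring them to the surface. It measured 274, 292 and 288 CPM in the 72 h libraries, 388, 369 and 402 CPM in the 24 h libraries, and 539.7, 560.5 and 489 CPM in the controls. The 3 groups did not overlap and stood in steps. B2m fell to 53.8% of control at 72 h (log2 change -0.90, SE 0.07, adjusted p = 1.42e-05) and to 72.9% at 24 h (-0.46, SE 0.07, adjusted p = 0.000619, edgeR). At 72 h it was lower than at 24 h by a log2 difference of -0.44 (SE 0.07, adjusted p = 0.000825, edgeR), whereas the heavy chains were not called there.

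The promoters of these 3 genes are shown because they hold the same arrangement of sequence. Each runs from 250 bases before to 49 bases after the transcription start site, taken as position 0, in RefSeq's annotation of GRCm38.p6, written along the gene's own strand. H2-K1 lies on the minus strand at chr17:34000298-34000597, H2-D1 on the plus strand at chr17:35262844-35263143, and B2m on the plus strand at chr2:122147437-122147736. Capitals mark every match, on either strand, to 5 motifs: the CRE core TGACG, the Y box core CCAAT, the ISRE core GAAANNGAAA, the GAS element TTCNNNGAA, and the kappaB consensus.
H2-K1: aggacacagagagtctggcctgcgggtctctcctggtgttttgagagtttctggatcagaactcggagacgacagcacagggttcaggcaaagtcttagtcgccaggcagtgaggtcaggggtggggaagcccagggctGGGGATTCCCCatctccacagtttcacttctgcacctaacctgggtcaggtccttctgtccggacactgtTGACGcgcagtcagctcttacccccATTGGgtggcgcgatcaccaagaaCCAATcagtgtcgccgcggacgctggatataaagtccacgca
H2-D1: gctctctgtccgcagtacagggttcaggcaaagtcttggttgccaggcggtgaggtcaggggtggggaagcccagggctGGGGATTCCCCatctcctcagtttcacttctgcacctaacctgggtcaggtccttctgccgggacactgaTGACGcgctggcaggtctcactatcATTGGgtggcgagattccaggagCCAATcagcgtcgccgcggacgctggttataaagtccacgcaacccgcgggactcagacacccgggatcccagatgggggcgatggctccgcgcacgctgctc
B2m: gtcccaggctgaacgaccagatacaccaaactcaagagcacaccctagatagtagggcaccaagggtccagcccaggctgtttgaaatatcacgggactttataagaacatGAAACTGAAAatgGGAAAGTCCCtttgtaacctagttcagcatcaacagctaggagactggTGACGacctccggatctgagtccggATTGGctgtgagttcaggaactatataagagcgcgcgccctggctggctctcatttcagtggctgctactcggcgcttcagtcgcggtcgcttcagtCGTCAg

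In all 3 promoters a CRE core is followed, after a gap of 20 bases, by a Y box core on the other strand. Counted from the annotated start sites, the CRE core begins at -41 in H2-K1, at -101 in H2-D1 and at -78 in B2m, and the Y box core begins at -16, -76 and -53. A further Y box core, on the gene's own strand, begins at 8 in H2-K1, after its annotated start, and at -53 in H2-D1. These distances depend on which start site is annotated. At the second annotated start site of H2-K1 the same letters fall at -55 and -30. This spacing was noticed after the windows were seen. Of 32851 windows of the same length 31 hold it (0.0944%), among them that of H2-M3. The windows of H2-K1, H2-D1 and B2m, where it was noticed, are counted in this share, so the share is no test. The H2-K1 and H2-D1 windows resemble each other, so their matches are not independent. The CRE core alone occurs in 20.8% of windows and the Y box core alone in 37.4%. The kappaB consensus, found in 8.46% of windows, begins at -111 in H2-K1, at -171 in H2-D1 and at -126 in B2m, and in the heavy chains its matches on both strands overlap. An exact match to the ISRE core, found in 3.44% of windows, occurs in B2m at -139 and in none of the other 7 genes with a window. Looser forms of the element were not searched for, so these 7 windows may hold them. H2-M3, a further class I heavy chain with the spaced pair, measured 7.35, 7.17 and 8.39 CPM at 72 h, 8.62, 8.10 and 7.27 CPM at 24 h, and 9.53, 9.49 and 8.63 CPM in controls. Its log2 change was -0.27 at 72 h (adjusted p = 0.239) and -0.21 at 24 h (adjusted p = 0.278, edgeR). A match describes letters and not binding.

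**Figure D2:**
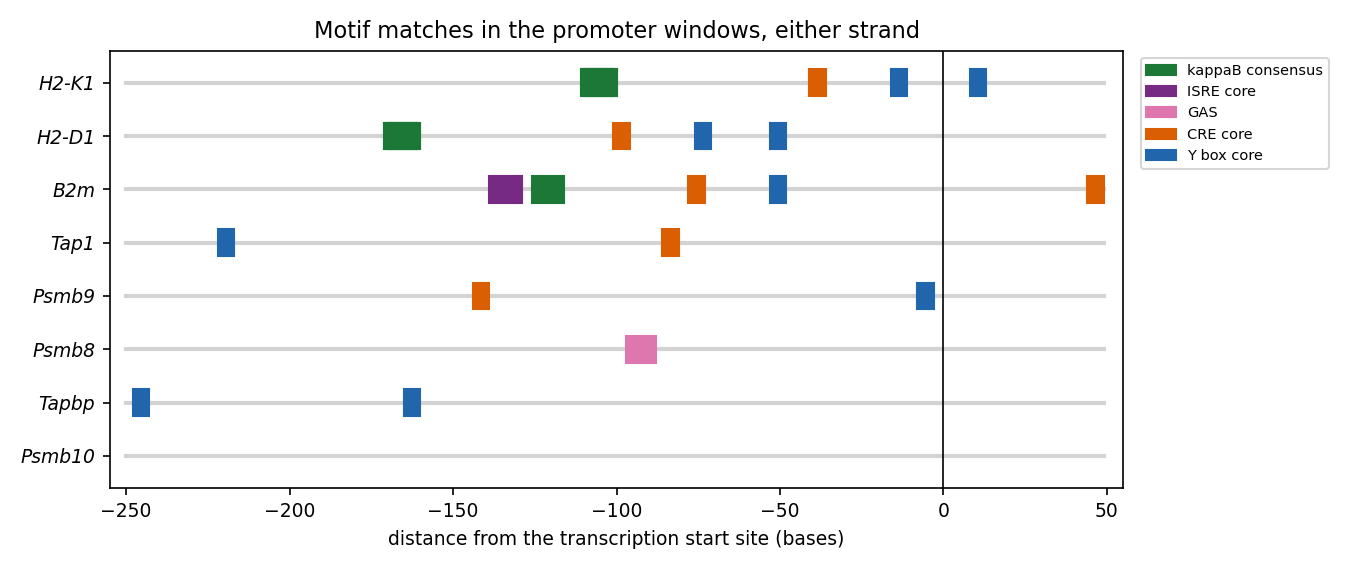
Motif matches (coloured blocks, either strand) in the promoter windows of the 8 genes with one, by distance from the transcription start site in bases (horizontal axis), with H2-K1 at its first start site. The CRE core and Y box core stand at the same distance from each other in H2-K1, H2-D1 and B2m.

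Tap1 and Tap2 form the transporter that carries peptides into the endoplasmic reticulum. Tap1 measured 15, 13.6 and 15.5 CPM at 72 h, 16.1, 20.5 and 18.6 CPM at 24 h, and 44.9, 35.9 and 42.5 CPM in controls. Tap2 measured 12.15, 11.7 and 13.8 CPM at 72 h, 15.4, 17.1 and 16.5 CPM at 24 h, and 23.04, 25.4 and 21.2 CPM in controls. No library of a DPI group reached a control for either gene. Tap1 fell to 35.8% of control at 72 h (log2 change -1.48, SE 0.11, adjusted p = 1.71e-05) and to 44.8% at 24 h (-1.16, SE 0.11, adjusted p = 3.65e-05, edgeR). Tap2 fell to 54.1% at 72 h (log2 change -0.89, SE 0.10, adjusted p = 0.000294) and to 70.3% at 24 h (-0.51, SE 0.10, adjusted p = 0.0041, edgeR).

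Between 72 h and 24 h the transporter genes stood near the threshold. Tap2 was lower at 72 h by a log2 difference of -0.38 (adjusted p = 0.0248, edgeR), but this call was lost without 24 h replicate 2 (adjusted p = 0.096), 24 h replicate 3 (0.08), 72 h replicate 1 (0.0817) or 72 h replicate 2 (0.0902). Tap1 differed by -0.32 with no overlap between the groups (adjusted p = 0.0748, edgeR), and it passed without control 2 (0.0238) or without 24 h replicate 1 (0.047). The ratio of Tap1 to Tap2, in CPM per kilobase of exon on the log2 scale, was -0.31 ± 0.07 at 72 h, -0.37 ± 0.10 at 24 h and 0.29 ± 0.28 in controls (SD, n = 3 each). Neither DPI group overlapped the controls in this ratio (exact two-sided permutation test, p = 0.1 for each, adjusted p = 0.15 over 15 ratio tests, where 0.1 is the smallest p that 3 against 3 can give). In RefSeq's annotation Tap1 and Psmb9 lie head to head, with start sites 226 bases apart and 275 bases shared by their promoter windows. The Tap1 window (chr17:34187306-34187605, plus strand, marked as above) is shown because most of it belongs to both.
Tap1: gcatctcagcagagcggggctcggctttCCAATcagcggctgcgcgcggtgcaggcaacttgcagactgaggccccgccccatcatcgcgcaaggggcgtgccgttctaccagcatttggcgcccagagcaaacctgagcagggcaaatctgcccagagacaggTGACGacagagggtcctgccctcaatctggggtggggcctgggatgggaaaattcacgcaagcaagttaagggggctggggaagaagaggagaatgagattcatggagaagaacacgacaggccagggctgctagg

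Its CRE core begins at -86 and its Y box core at -222, without the spacing seen in the heavy chains and B2m. In GENCODE's annotation, whose gene bounds differ from those start sites, Tap1 and Psmb9 share 212 bases on opposite strands. The strand setting of the counting is not given, so reads there cannot be assigned with certainty. Psmb9 held 384 counts over the 9 libraries and Tap1 3698.

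Tapbp encodes tapasin, which bridges the transporter and the empty class I molecule. It measured 107, 96.25 and 99.1 CPM at 72 h, 174, 191.5 and 191 CPM at 24 h, and 182, 178 and 175 CPM in controls. The 24 h libraries lay around the controls, and all 72 h libraries lay below both. Tapbp fell to 56.6% of control at 72 h (log2 change -0.82, SE 0.06, adjusted p = 1.93e-05, edgeR). At 24 h the log2 change was 0.06 with a 95% interval from -0.08 to 0.20 (adjusted p = 0.545, edgeR). At 72 h it was lower than at 24 h by -0.88 (SE 0.06, adjusted p = 5.16e-06, edgeR). Tapbp overlaps Zbtb22 over 3422 bases on the same strand, and Zbtb22 held 4707 counts over the 9 libraries against 23207 for Tapbp.

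The 3 immunoproteasome subunits each replace a constitutive catalytic subunit of the proteasome core: Psmb8 replaces Psmb5, Psmb9 replaces Psmb6 and Psmb10 replaces Psmb7. Psmb8 measured 1.52, 0.988 and 1.55 CPM at 72 h, 3.425, 4.51 and 3.50 CPM at 24 h, and 7.54, 8.05 and 6.91 CPM in controls. Psmb9 measured 2.065, 1.61 and 1.48 CPM at 72 h, 0.856, 1.83 and 1.52 CPM at 24 h, and 4.28, 4.41 and 5.05 CPM in controls. These are low counts: 16 to 25 per library for Psmb8 at 72 h, and 14 to 34 per DPI library for Psmb9. Psmb8 stood in 3 separate steps, while for Psmb9 both DPI groups overlapped below the controls.

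Psmb8 had the largest fall of the 10 genes at 72 h, to 18.1% of control (log2 change -2.47, SE 0.23, adjusted p = 5.97e-05, edgeR). At 24 h it stood at 50.8% of control (-0.98, SE 0.20, adjusted p = 0.00545, edgeR), and the difference of 72 h from 24 h was -1.49 (SE 0.23, adjusted p = 0.000953, edgeR). Psmb9 fell to 37.6% at 72 h (log2 change -1.41, SE 0.29, adjusted p = 0.0114) and to 30.7% at 24 h (-1.70, SE 0.29, adjusted p = 0.00187, edgeR), where it had the largest fall of the 10. Its 72 h call was lost without 72 h replicate 2 (adjusted p = 0.0539) or 72 h replicate 3 (0.0541), and its difference between 72 h and 24 h was 0.29, with a 95% interval from -0.38 to 0.97.

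Psmb10 measured 12.2, 12.05 and 14.3 CPM at 72 h, 16.4, 18.8 and 20.8 CPM at 24 h, and 18.9, 25.5 and 17.1 CPM in controls. Control 2 is the high control, and the 24 h libraries lie among the controls. Psmb10 fell to 62.5% of control at 72 h (log2 change -0.68, SE 0.15, adjusted p = 0.0204, edgeR). This call was lost with only the 6 libraries compared (adjusted p = 0.0512), without 72 h replicate 1 (0.0856) and without 72 h replicate 2 (0.0888). At 24 h the log2 change was -0.14 (adjusted p = 0.549, edgeR) and 0.05 without control 2. Psmb10 was lower at 72 h than at 24 h by -0.54 (adjusted p = 0.0308, edgeR), a call lost without 24 h replicate 2 (0.0891), 24 h replicate 3 (0.129), 72 h replicate 1 (0.102) or 72 h replicate 2 (0.104).

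With all 9 libraries and the filter on low counts, the constitutive counterparts did not pass edgeR's test in any comparison. Psmb5 passed at 24 h with low counts kept (-0.24, adjusted p = 0.0417), and Psmb7 at 72 h against 24 h with only the 6 libraries compared (-0.15, adjusted p = 0.0272) or without control 2 (0.018). At 72 h the log2 change was -0.17 for Psmb5, -0.15 for Psmb6 and -0.24 for Psmb7 (adjusted p = 0.5, 0.389 and 0.167, edgeR). Psmb8 over Psmb5, as a log2 ratio of CPM per kilobase, was -7.60 ± 0.26 at 72 h, -6.02 ± 0.32 at 24 h and -5.26 ± 0.20 in controls (SD, n = 3 each). Psmb9 over Psmb6 was -7.11 ± 0.23 at 72 h, -7.51 ± 0.57 at 24 h and -5.82 ± 0.28 in controls. Psmb10 over Psmb7 was -2.56 ± 0.12 at 72 h, -2.17 ± 0.22 at 24 h and -2.12 ± 0.10 in controls. All 3 ratios lay below the controls at 72 h with no overlap, by -2.35 (SE 0.19), -1.29 (SE 0.21) and -0.43 (SE 0.09). The exact permutation p was 0.1 for each, the smallest possible, and 0.15 after adjustment.

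**Figure D3:**
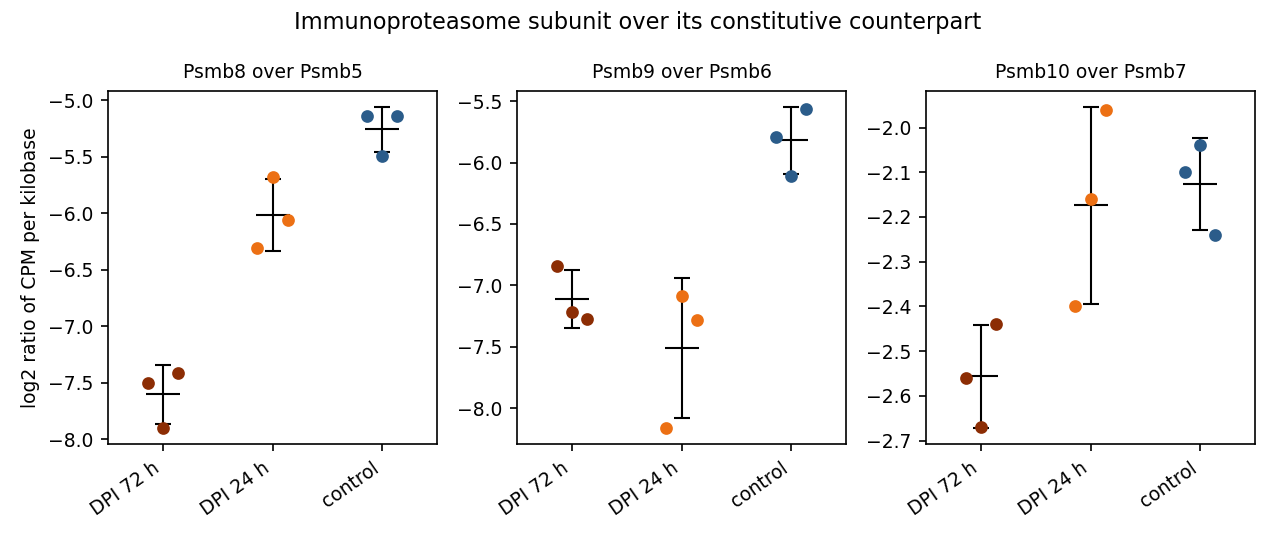
Log2 ratio of CPM per kilobase of exon (vertical axes, each with its own range) of each immunoproteasome subunit over its constitutive counterpart, per library, with the mean (bar) and SD (whiskers, n = 3). The 72 h points lie below the control points in all 3 panels, and the 24 h points do so for Psmb8 and Psmb9.

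The promoter of Psmb8 (chr17:34197945-34198244, plus strand, marked as above) is shown for the gene with the largest fall at 72 h. It holds a GAS element, a motif of interferon-gamma-responsive genes, at -97, and no other match. A GAS element occurs in 8.30% of windows.
Psmb8: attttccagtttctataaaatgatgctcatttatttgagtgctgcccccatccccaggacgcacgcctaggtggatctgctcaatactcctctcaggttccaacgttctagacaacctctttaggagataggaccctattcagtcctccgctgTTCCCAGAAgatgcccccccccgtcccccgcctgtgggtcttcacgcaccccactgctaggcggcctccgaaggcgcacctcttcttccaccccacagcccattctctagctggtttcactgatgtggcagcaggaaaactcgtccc

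At 24 h against control, 7 of the 10 genes were lower and 0 higher, with a median log2 change of -0.685, where 12.3% of all genes tested were lower and 12.4% higher. The 3 without a call were Tapbp, Psmb10 and Nlrc5. At 72 h against 24 h, 6 of the 10 were lower and 0 higher, with a median of -0.41, where 11.2% of all genes were lower and 10.1% higher. Those 6 were B2m, Tap2, Tapbp, Psmb8, Psmb10 and Nlrc5, and they include the 3 genes without a call at 24 h. Since all 10 were lower at 72 h than in controls, a gene with little change at 24 h would show such a difference. For Nlrc5 the difference was -0.65 (SE 0.16, adjusted p = 0.0156, edgeR). It was lost without 24 h replicate 2 (adjusted p = 0.0625), 24 h replicate 3 (0.0518) or 72 h replicate 2 (0.0674). The count of 6 became 3 without any of those same 3 libraries. Calls among all genes, in either direction, fell there too, from 3001 to 2006, 1953 and 2120. Both DPI groups are set against the same controls.

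**Figure D4:**
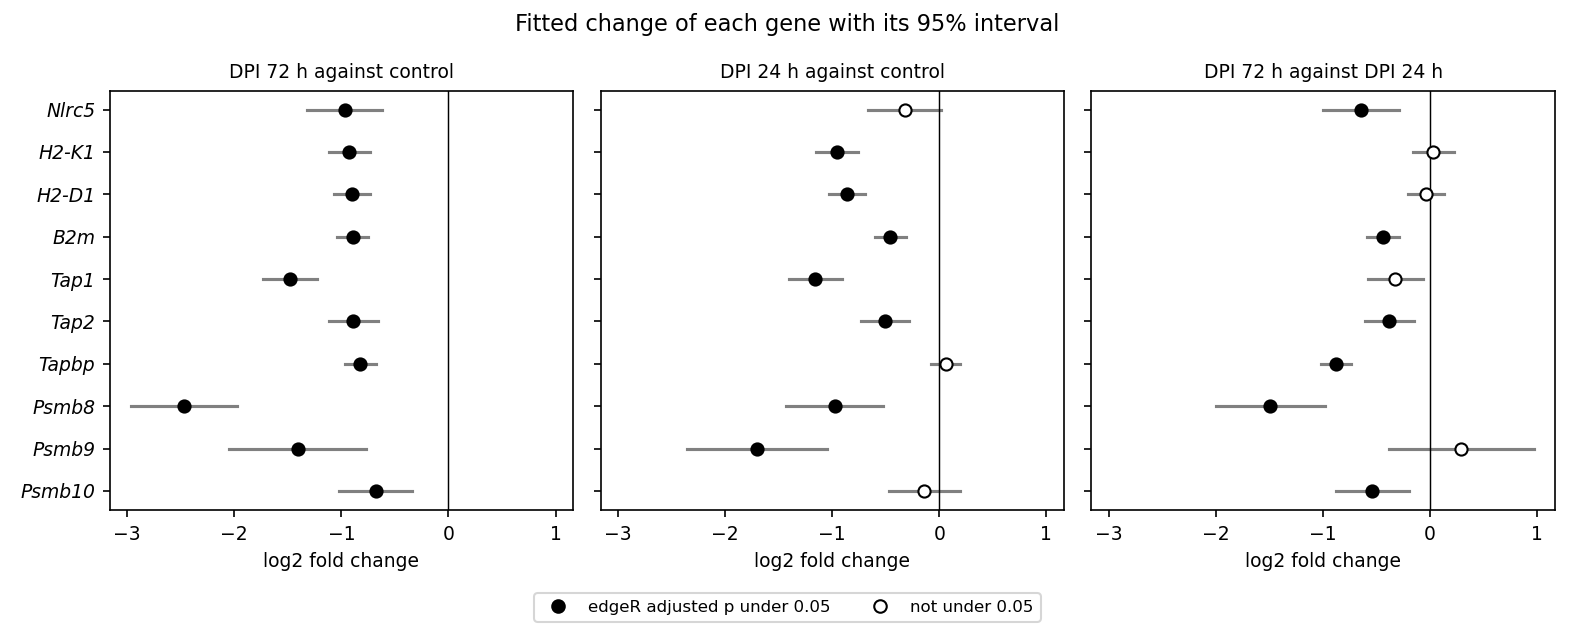
Fitted log2 fold change (points) with its 95% interval (lines) for each class I gene in the 3 comparisons, filled where edgeR's adjusted p is under 0.05. All 10 points are filled and left of 0 at 72 h, 7 at 24 h and 6 at 72 h against 24 h, where H2-K1 and H2-D1 lie at 0.03 and -0.04.

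Per kilobase of exon, B2m was the most abundant of the 10 in every group, at 331 CPM per kilobase at 72 h, 449 at 24 h and 616 in controls. H2-D1 came next, at 100.2 at 72 h, 103 at 24 h and 187 in controls. H2-K1 followed, at 72.4 at 72 h, 70.9 at 24 h and 137 in controls. Tapbp stood at 27.8 at 72 h, 51.15 at 24 h and 49.1 in controls, and Psmb10 at 7.54 at 72 h, 10.95 at 24 h and 12.05 in controls. None of these neighbours overlapped within a group. Tap1, Tap2 and Nlrc5 followed, between 2.48 and 7.51 CPM per kilobase. Tap1 stood below Tap2 at 72 h (2.69 and 3.32, without overlap) and above it in controls (7.51 and 6.14, with overlap). Psmb8 and Psmb9 were lowest, and Psmb8 overlapped Psmb9 at 72 h (0.40 and 0.469) but lay above it in controls (2.22 and 1.25). The order of close neighbours depends on the length used. Per kilobase of the longest coding transcript, H2-K1 stood above H2-D1 in all 3 groups (131 and 123 at 72 h) and Tap1 above Tap2 (4.98 and 3.65 at 72 h). The ratio of H2-K1 to H2-D1 had a log2 value of -0.47 ± 0.07 at 72 h, -0.54 ± 0.01 at 24 h and -0.45 ± 0.02 in controls (SD, n = 3 each, per kilobase of exon). In this ratio the 72 h libraries overlapped the controls and the 24 h libraries did not (exact permutation p = 0.1, adjusted p = 0.15). The mouse strain is not given, and how well its heavy chain genes match the genome build was not checked.

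Of 13 other class I or class I-like heavy chains tested, 4 fell at 72 h and 0 rose (30.8% lower, against 3.83% of all genes). The 13 include the class I-like genes Cd1d1, Mr1, Hfe and Fcgrt, which were left out of the summed heavy chains and were not called. H2-Q4 measured 28.7, 28.1 and 31.8 CPM at 72 h, 33.5, 41.5 and 36.4 CPM at 24 h, and 70.2, 65.6 and 68.0 CPM in controls, a log2 change of -1.20 at 72 h and -0.87 at 24 h (adjusted p = 1.26e-05 and 4.14e-05, edgeR). H2-T23, whose product shows leader peptides of other class I chains to natural killer cells, fell by 0.58 at 72 h and by 0.60 at 24 h (adjusted p = 0.000519 and 0.000174, edgeR). H2-Q7 fell by 1.90 and H2-T22 by 0.61 at 72 h (adjusted p = 0.000799 and 0.00109, edgeR). H2-Q4, H2-T23, H2-Q7 and H2-T22 were also called lower at 24 h, where 12.3% of all genes were lower. H2-T22 was not called at 24 h without 24 h replicate 3 (adjusted p = 0.051).

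Of 11 genes for loading and trimming in the endoplasmic reticulum, Erap1, which trims peptides, fell by 0.31 at 72 h (adjusted p = 0.0376) and Calr, the lectin chaperone calreticulin, rose by 0.19 (adjusted p = 0.0408, edgeR). Leaving out any library but control 2 ended the Calr call (adjusted p from 0.0757 to 0.137). Leaving out any library but control 2 or 72 h replicate 3 ended the Erap1 call (adjusted p from 0.0521 to 0.154). Both calls were also lost with only the 6 libraries compared (adjusted p = 0.158 for Calr and 0.102 for Erap1). At 24 h 4 of the 11 rose and 0 fell: Calr (0.60), Pdia3 (0.29), Canx (0.25) and Sec61a1 (0.23, named after its value was seen), with adjusted p of 1.24e-05, 0.00387, 0.00289 and 0.0183 by edgeR. These 4 were 36.4% of the list, while 12.4% of all genes tested were higher and 12.3% lower at 24 h. The Sec61a1 call was lost without any 24 h library (adjusted p from 0.0552 to 0.0684, edgeR). Calr, Canx and Erap1 were lower at 72 h than at 24 h, by -0.41, -0.30 and -0.37 (adjusted p = 0.000174, 0.000989 and 0.00781, edgeR). Pdia3 and Sec61a1 stood at the threshold there, at -0.19 each (adjusted p = 0.0393 and 0.0424), and both missed it with upper quartile scaling (0.0913 and 0.0599), with low counts kept (0.135 and 0.116) and without any DPI library (0.0675 to 0.134 and 0.063 to 0.169). Tapbpl, a relative of tapasin that edits peptides, had log2 changes of -0.40 and -0.37 (adjusted p = 0.121 at 72 h and 0.0829 at 24 h, edgeR).

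None of the other genes of the proteasome core, cap or assembly was called at 72 h. There 0 of 3 constitutive catalytic subunits, 0 of 11 other core subunits, 0 of 18 genes of the regulatory cap and 0 of 5 assembly factors passed the test, and their medians lay between -0.17 and -0.03. At 24 h 3 of the 18 cap genes rose, Psmc5 (0.20), Psmd1 (0.16) and Psmd2 (0.16), and 2 of the 5 assembly factors fell, Psmg2 (-0.30) and Psmg4 (-0.50), with adjusted p of 0.025, 0.0472, 0.0348, 0.0483 and 0.0265 by edgeR. Of all genes tested, 12.4% were higher and 12.3% lower at 24 h, so the 3 cap genes (16.7% of their list) stood near the general share. The 3 cap genes lost their calls without any 24 h library (adjusted p from 0.0693 to 0.145, edgeR) and the assembly factors without control 2 (0.101 and 0.0694). Psmc5 and Psmd2 were named after their values were seen. The interferon-inducible activator gene Psme1 measured 36.0, 40.9 and 38.2 CPM at 72 h, 46.0, 51.4 and 50.9 CPM at 24 h, and 59.3, 66.6 and 51.4 CPM in controls. Psme1 fell by 0.62 at 72 h (adjusted p = 0.00205, edgeR). Its partner Psme2 had a log2 change of -0.36 (adjusted p = 0.0678, edgeR), which passed without control 3 (0.0364), with low counts kept (0.0033) and by DESeq2 (0.0398). Without control 2, Psma7 rose by 0.32 at 72 h (adjusted p = 0.000384), Pomp by 0.17 (0.0403) and Psmd1 by 0.15 (0.0416, edgeR). Psmd1 also passed by DESeq2 (adjusted p = 0.0342).

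Of 7 transcription factors of the STAT and IRF families described here, 3 fell at 72 h and 0 rose (42.9% lower, against 3.83% of all genes). Irf9, which joins STAT proteins in the complex that binds interferon-stimulated response elements, measured 11, 11.5 and 15.2 CPM at 72 h, 18.9, 26.7 and 22.4 CPM at 24 h, and 55.4, 45.6 and 51 CPM in controls. Its groups stood in 3 separate steps. At 72 h the log2 changes were -2.01 for Irf9, -1.10 for Stat2 and -0.47 for Irf1 (adjusted p = 1.42e-05, 0.00142 and 0.00663, edgeR). Irf1, an interferon-induced activator of class I genes, had a log2 change of 0.22 at 24 h (adjusted p = 0.0821) and was lower at 72 h than at 24 h by -0.69 (adjusted p = 0.000256, edgeR).

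At 24 h Irf9 fell by 1.16 and Stat2 by 0.48 (adjusted p = 0.000192 and 0.0468, edgeR). The Stat2 call at 24 h was lost without control 1 (adjusted p = 0.0853), control 3 (0.145), any 24 h library (0.0777 to 0.153), 72 h replicate 1 (0.0552) or 72 h replicate 2 (0.0518). Irf5 fell by 1.60 and Stat3 rose by 0.25 at 24 h (adjusted p = 0.00639 and 0.0123, edgeR), both named after their values were seen. The Stat3 call was lost without 24 h replicate 2 (adjusted p = 0.0607). Of the 7 interferon receptor and kinase genes, 0 passed at 72 h, and at 24 h Ifngr1 rose by 0.54 (adjusted p = 6.05e-05) while Jak2 had a log2 change of -0.32 (adjusted p = 0.0478, edgeR) that was lost without any library but control 2 (adjusted p from 0.0616 to 0.141). None of 9 interferon genes passed the filter, 5 of them had 0 counts in all libraries, and their summed level did not exceed 0.331 CPM.

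Usp18, a protease that removes ISG15 and damps the type I interferon receptor, fell by 4.27 at 72 h and by 1.71 at 24 h (adjusted p = 4.78e-06 and 0.000277, edgeR). It measured 0.668, 1.05 and 0.774 CPM at 72 h, 3.98, 6.52 and 4.34 CPM at 24 h, and 18.8, 12.7 and 16.9 CPM in controls. Among the 14 genes for damping interferon signalling and for class I turnover, it was the only one lower at 72 h, and Ptpn1, a phosphatase of the Janus kinases, rose by 0.29 (adjusted p = 0.0167, edgeR). The Ptpn1 call was lost without control 1 (adjusted p = 0.0504), control 3 (0.0501) or 72 h replicate 2 (0.0883), and with only the 6 libraries compared (0.0545). Of 13 factors that bind class I promoters or belong to the NF-kappaB family, Nfkb1 and Nfyb rose by 0.22 and 0.25 and Relb fell by 0.41 at 72 h (adjusted p = 0.0211, 0.0424 and 0.0419, edgeR). Leaving out single libraries ended these calls, with adjusted p up to 0.0918 for Nfkb1 (without 72 h replicate 2), 0.155 for Nfyb (without 72 h replicate 3) and 0.152 for Relb (without 72 h replicate 2). Fitting only the 6 libraries compared ended them as well (adjusted p = 0.0932, 0.101 and 0.111). At 24 h 4 of the 13 rose and 0 fell: Nfkb1 (0.41), Nfkb2 (0.46), Rel (0.50) and Nfyc (0.42), with adjusted p of 0.000207, 0.000203, 0.00548 and 0.000553 by edgeR. These 4 were 30.8% of the list, while 12.4% of all genes were higher at 24 h. Of the 13, 6 were lower and 1 higher at 72 h against 24 h (46.2% and 7.69%, against 11.2% and 10.1% of all genes). There Nfkb2 stood at -0.64 and Nfyb at 0.42 (adjusted p = 1.91e-05 and 0.00122, edgeR). Rel and Nfyc were named after their values were seen. Rfx5, a partner of Nlrc5 on class I promoters, had log2 changes of -0.04 at 72 h and -0.20 at 24 h (adjusted p = 0.896 and 0.303, edgeR).

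Over all 109 genes tested in these other lists, 11 were lower and 4 higher at 72 h, with a median of -0.06. At 72 h 10.1% of these genes were thus lower and 3.67% higher, against 3.83% and 4.73% of all genes. At 24 h 13 were lower and 14 higher (11.9% and 12.8%), close to the 12.3% and 12.4% of all genes. At 72 h against 24 h 21 were lower and 4 higher (19.3% and 3.67%), against 11.2% and 10.1% of all genes. The MHC class II genes and their activator Ciita were scarce: 3 of 11 were tested, 0 passed, and their summed level was 3.64 to 6.50 CPM at 72 h, 4.47 to 5.36 CPM at 24 h and 5.97 to 7.67 CPM in controls.

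**Figure D5:**
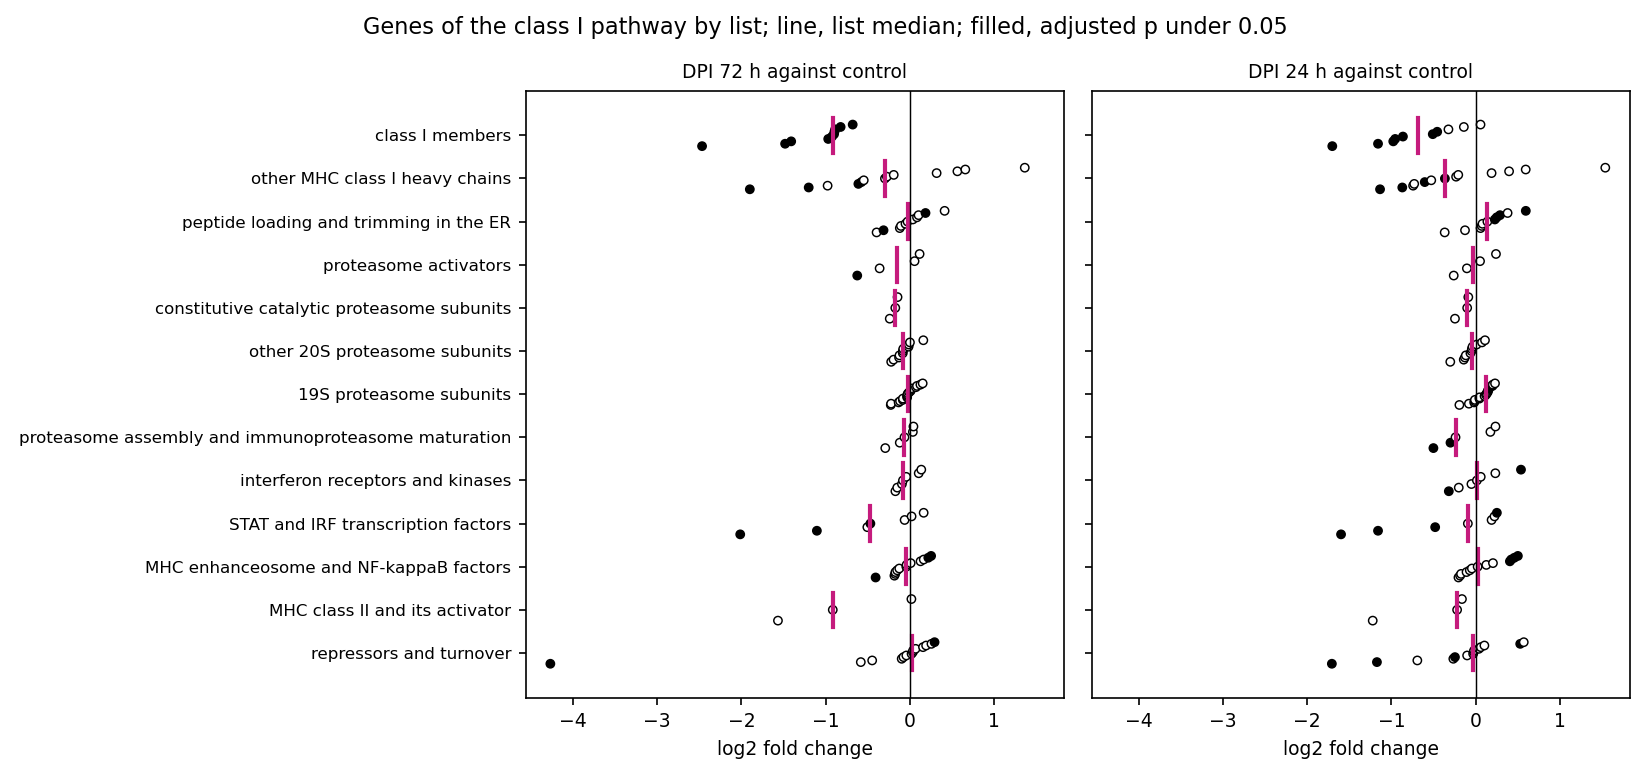
Log2 fold change against control (horizontal axis) of every gene tested in each list, at 72 h (left) and 24 h (right), filled where edgeR's adjusted p is under 0.05, with the list median as a line. The class I members lie left of 0 at 72 h with a median of -0.91, while the proteasome lists below them have medians between -0.17 and -0.03.

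The 7 class I members on chromosome 17 lie in the MHC region, from Tapbp to H2-D1 (chr17:33915899-35267499, GRCm38), while B2m is on chromosome 2 and Psmb10 and Nlrc5 are on chromosome 8. Of the other 56 genes tested in that interval, 2 were lower and 0 higher at 72 h (3.57% lower, against 3.83% of all genes). At 24 h 13 were lower and 1 higher (23.2% and 1.79%), against 12.3% and 12.4% of all genes, and at 72 h against 24 h 5 were lower and 8 higher (8.93% and 14.3%). The members on chromosomes 2 and 8 fell at 72 h as well. At 24 h B2m fell and Psmb10 and Nlrc5 were not called, while all members on chromosome 17 but Tapbp were lower. A part of position in these changes was not tested.

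The genes whose profile over the 9 libraries lay closest to the median profile of the 10 were Parp12, Parp10, Sqstm1, Ifi35 and Serpinb9b. Likeness was the Euclidean distance between log2 CPM profiles centred on each gene's mean, among genes with a mean of at least 5 CPM. The distances were 0.301 for Parp12, 0.329 for Parp10, 0.342 for Sqstm1, 0.347 for Ifi35 and 0.36 for Serpinb9b. Of the members, B2m lay at 0.286 and Psmb8 at 1.45. Parp12 had log2 changes of -0.94 at 72 h and -0.50 at 24 h, and Sqstm1, the autophagy receptor p62, of -0.79 and -0.49. These are descriptions over 9 libraries that share their groups.

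Markers of other cell types were scarce, though some reached the level of Psmb8 and Psmb9. Of 16 leukocyte markers, 6 had no counts (Adgre1, Cd3e, Cd8a, Ms4a1, Ncr1 and Tyrobp), and the 16 summed to 2.98 to 4.39 CPM at 72 h, 5.58 to 5.75 CPM at 24 h and 4.67 to 5.79 CPM in controls. Endothelial markers summed to 1.35 to 2.90 CPM at 72 h, 4.39 to 6.06 CPM at 24 h and 2.21 to 2.59 CPM in controls. Epithelial markers summed to 6.44 to 6.67 CPM at 72 h, 1.35 to 1.64 CPM at 24 h and 1.38 to 2.17 CPM in controls. Of single markers, the keratin gene Krt8 rose by 1.86 at 72 h (adjusted p = 0.0017, edgeR). Cd68, a lysosomal protein gene of macrophages, had a log2 change of -0.84 (adjusted p = 0.0375, edgeR), a call lost without any of the 9 libraries (0.0557 to 0.128). Both were named after their values were seen. Of the 10 fibroblast markers 7 were tested, and at 72 h Col1a1, Col1a2 and Vim rose by 1.04, 0.65 and 0.57 (adjusted p = 2.99e-05, 7.41e-05 and 0.000442, edgeR) while Col3a1, Dcn, Pdgfra and Pdgfrb were not called. At 24 h all 7 rose, where 12.4% of all genes were higher, though Col3a1 and Dcn did not exceed 6.67 CPM in any library. Vim rose there by 0.24 in a call lost without any 24 h library, control 1 or control 3 (adjusted p from 0.0749 to 0.111, edgeR). The sum of the 10, nearly all from Col1a1, Col1a2 and Vim, was 8490 to 9970 CPM at 72 h, 9240 to 9660 CPM at 24 h and 5230 to 5420 CPM in controls. The part of these differences in the class I results was not tested.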

How the data were processed

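RNA of 9 libraries of mouse adult fibroblasts was prepared with a TruSeq kit and read on an Illumina HiSeq sequencer, per the labels' protocols. The genome build GRCm38 and the tools STAR, RSEM, cutadapt, Trim Galore, edgeR and limma appear in the submitters' processing notes, with no version and no role. The authors deposited raw counts, whole numbers per Ensembl gene. How RSEM estimates became whole numbers, and which strand was counted, is not given in the sources used here. A second deposited table repeated these counts for fewer genes and was not used. Symbols, coordinates and exonic lengths came from GENCODE's annotation of GRCm38, in which 105 IDs with 0.009% of counts had no symbol. Promoter windows came from RefSeq (GRCm38.p6) for 8 of the 10 genes, not for Tap2 and Nlrc5.

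Low counts were removed with filterByExpr by group, and TMM factors lay between 0.98 and 1.02. The quasi-likelihood test of edgeR 4.0.16 under R 4.3.3 (glmQLFit, then glmQLFTest) used a model of 3 group means over the 9 libraries, with Benjamini-Hochberg adjustment over 14088 genes. SE is the log2 change over the root of F. Log2 ratios of single libraries were compared by exact permutation tests (scipy 1.17.1). The model was tested on simulated counts. The members, the gene lists and the naming rule (all members, the 4 genes of smallest p at 72 h per list, a set of genes by name, and the 5 genes of most alike profile) were chosen with earlier results of these data known. Alternatives were other scalings, no filter, DESeq2 1.42.0, limma voom (limma 3.58.1), fits of only the 6 libraries compared, a block for replicate number, each library left out, a threshold of 0.01 and ratios without length scaling. Summed heavy chains and transcript lengths were added after the data were seen. A gene of the transcription factor list is not reported here and is left out of the counts of the lists. Depth was 15292736 to 17923656 counts per library, and no pair of libraries of a group agreed within sampling noise.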

Additional observations from a re-analysis of the deposited data

Results flagged for a closer look

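For 6 of the 10 class I genes the change at 72 h differed from the change at 24 h by the direct test between the 72 h and 24 h libraries (edgeR's quasi-likelihood test, adjusted over all genes). All 6 were lower at 72 h, as were 11.2% of all genes tested, while 10.1% were higher. Since both changes use the same controls, their difference is the contrast of 72 h against 24 h. The log2 change at 72 h minus that at 24 h was -0.44 for B2m, -0.38 for Tap2, -0.88 for Tapbp, -1.49 for Psmb8, -0.54 for Psmb10 and -0.65 for Nlrc5. Tap2, Psmb10 and Nlrc5 lost the call without any of several single libraries, and the count of 6 was 3 without 24 h replicate 2, 24 h replicate 3 or 72 h replicate 2. Of all genes, 3001 were called in either direction, but 2006, 1953 and 2120 in those 3 fits. For Tapbp the log2 change was -0.82 at 72 h and 0.06 at 24 h. Groups of 3 libraries are too small for a test of single outlying libraries.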

How the results depend on the processing

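Over 17 alternatives per comparison, 479 of 510 values for the 10 genes kept their direction and their side of the threshold, and at 72 h against control all 10 kept their direction in each. Upper quartile scaling moved the median of all genes at 72 h to -0.03. The replicate numbers did not pair the libraries, as same-numbered libraries had correlations between -0.106 and -0.005. With a replicate block all 10 members were lower at 72 h, Tap2 lost its call at 72 h against 24 h (adjusted p = 0.0501), and 911 genes were called at 72 h, against 1206 without the block.

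At an adjusted p under 0.01, 3 members were lower at 72 h against 24 h, where calls among all genes in either direction numbered 1590, not 3001. Leaving out each library, members lower numbered 8 to 10 at 72 h, 7 to 8 at 24 h and 3 to 7 at 72 h against 24 h. Log2 changes that missed the threshold turned their sign in this way. At 72 h against 24 h H2-K1 ranged from -0.050 to 0.097 and H2-D1 from -0.090 to 0.027, and with heavy chains summed, an alternative chosen after seeing the data, the change was -0.048. At 72 h against control the ranges were -0.092 to 0.19 for H2-DMb1, -0.0061 to 0.22 for Jak2, -0.049 to 0.17 for Pomp, -0.29 to 0.016 for Psmb5, -0.053 to 0.14 for Psme4, -0.13 to 0.073 for Psmg1, -0.23 to 0.046 for Psmg4, -0.026 to 0.044 for Nfyc, -0.070 to 0.0087 for Psmc5 and -0.18 to 0.13 for Rfx5. H2-DMb1 also turned to -0.0094 with upper quartile scaling and -0.0051 with limma voom, and Nfyc to -0.016 with upper quartile scaling. At 24 h against control the ranges were -0.26 to 0.050 for Psmb10, -0.17 to 0.031 for Psmb6 and -0.16 to 0.051 for Psmb7. The log2 ratio difference ranged from -0.155 to 0.067 for Psmb10 over Psmb7 at 24 h and from -0.063 to 0.0020 for H2-K1 over H2-D1 at 72 h.

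Of the other pathway genes, those higher at 72 h numbered 2 with upper quartile scaling, 2 with no filter, 0 with only the 6 libraries compared, 1 with the replicate block, 0 at 0.01 and 0 to 10 leaving out each library. Those lower at 72 h numbered 9 to 13 leaving out each library. At 24 h, 7 were lower and 9 higher at 0.01, with 8 to 13 lower and 9 to 29 higher leaving out each library. At 72 h against 24 h, 34 were lower and 9 higher with only the 6 libraries, 10 lower and 1 higher at 0.01, 2 higher with no filter, and 10 to 35 lower and 1 to 10 higher leaving out each library. Of all genes, 1206 were called at 72 h, but 774 with only the 6 libraries, 627 at 0.01 and 736 to 1965 leaving out each library, the highest without control 2. The 24 h calls numbered 3478, but 1904 at 0.01. Those at 72 h against 24 h numbered 3001, but 4660 with only the 6 libraries and 1590 at 0.01. Leaving out each library they numbered 1953 to 4729, the highest without control 2. The cause was not tested. Depth limits Psmb8 and Psmb9 most, with as few as 16 and 14 counts in a library.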
